A study of Zea mays with 12 samples.

Results

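The transcripts of 8 maize aminotransferase genes were followed along the developing leaf in its photosynthetic cell types, the bundle sheath (BS) around the veins and the mesophyll (M) outside it. They are 3 genes named as aspartate aminotransferases (AspAT) and 5 named as alanine aminotransferases (AlaAT), chosen with earlier results of these data known. They were taken by identifier from a table in which 47572 genes were above 0 in at least 1 library. Other members of these families were not listed, so the totals and shares below cover these 8 genes alone. All 8 were among the 32548 genes that passed a filter on low values and were tested. Each of the 6 groups, BS and M cells at each of 3 stages, had 2 RNA-seq libraries, 12 in all, made from cells cut out of fixed sections of the third leaf of Mo17 seedlings by laser microdissection. The SST libraries are from the sink-source transition, at -1 cm along the blade, the maturing ones from 4 cm and the mature ones from 9 cm, taken to be the leaf sections that the labels number 4, 9 and 14, in that order. No group was treated, and BS and M cells at a stage came from the same kind of section. Nothing in the labels says that the libraries of a group came from separate plants, so the p-values measure the spread between these libraries, which may be technical.

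Aminotransferases move an amino group between an amino acid and a keto acid. In C4 leaves, M cells fix CO2 into oxaloacetate, which is passed to BS cells mainly as malate and in part as aspartate. AspAT makes aspartate from oxaloacetate in M cells and turns it back into oxaloacetate in BS cells, where phosphoenolpyruvate carboxykinase (PEPCK) can release the CO2. AlaAT converts pyruvate and alanine into each other, and alanine can carry carbon and nitrogen back to M cells. Some genes of the AlaAT family encode glutamate:glyoxylate aminotransferases, which in Arabidopsis act in peroxisomes in photorespiration.

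The members are spread over several such roles. Of the AspAT genes, GRMZM5G836910 is annotated after Arabidopsis ASP5, the plastid AspAT. GRMZM2G033799 is matched to an Arabidopsis gene for an AspAT that also acts on prephenate, in the synthesis of phenylalanine and tyrosine. GRMZM2G094712 has no further annotation in the sources used here. Among the AlaAT genes GRMZM2G088064 is annotated as AlaAT1, GRMZM2G053999 and GRMZM2G124963 as ALAAT2, and GRMZM5G840582 and GRMZM2G120563 as AOAT2, a glutamate:glyoxylate type.

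Values are FPKM (fragments per kilobase of transcript, relative to the fragments mapped in the library) after the upper quartiles of all libraries had been brought to 2.55 FPKM, and are called scaled FPKM here. The log2 BS/M values are fitted on log2(scaled FPKM + 0.255), which draws the differences of low genes toward 0. A gene was called where limma gave an adjusted p below 0.01. FPKM totals per library were 1009180 to 1551570, and the depth estimated from the steps of low values was between 0.644 and 2.36 times that of the first SST BS library. The maturing libraries were the deepest, at 2.31 to 2.36 times. The log2 values of the libraries of a group correlated at 0.898 to 0.934.

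The labelled cell types were checked on 4 marker enzymes of each. All 4 BS markers (NADP-ME, PEPCK, the Rubisco small subunit ssu1 and Rubisco activase) were called higher in BS at each stage, and the M markers PepC, NADP-MDH and carbonic anhydrase were called lower in BS at each stage. The M marker PPDK was called at SST and maturing and had an adjusted p of 0.012 by limma at mature. Each cell type still held transcripts of the other. The lower cell type had 2.74 to 15.5% of the level of the higher one for the BS markers and 16.7 to 44.3% for the M markers, over the 3 stages. The first mature BS library stood apart from the second, since all 4 M markers were higher in it and all 4 BS markers lower. PPDK was at 21810 and 14570 scaled FPKM in the mature BS libraries, NADP-MDH at 248.5 and 125.2, and ssu1 at 8597 and 13980. The epidermal genes ocl1, ocl3 and gl1 were higher in both M libraries than in either BS library at each stage, with ocl1 at 0.133 to 4.60 scaled FPKM in BS and 2.67 to 11.6 in M. The highest ocl1 value among the BS libraries was again in the first mature one. The sucrose transporter gene sut1, a companion cell marker, was at 41.4 to 287 in BS and 2.01 to 11.9 in M. The part of other cells in the differences below was not tested.

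The aminotransferases differed widely in level. Ordered on the mean over the 12 libraries, GRMZM5G836910 had 645 scaled FPKM, GRMZM2G120563 254, GRMZM5G840582 97.8, GRMZM2G053999 16.5, GRMZM2G088064 10.6, GRMZM2G094712 2.12, GRMZM2G033799 1.31 and GRMZM2G124963 0.985. Only 0.777% of the genes tested had a higher mean than GRMZM5G836910, and 57.4% had a higher mean than GRMZM2G124963. FPKM compares genes per unit of length, and the RNA had been amplified, which draws reads to the 3′ ends of transcripts, so the order among genes of different length is approximate. The order also differed between groups. Among such changes, GRMZM2G120563 had a higher mean than GRMZM5G836910 in BS at each stage, with libraries that overlapped at maturing. GRMZM2G088064 had a higher one than GRMZM2G053999 in maturing and mature M, and GRMZM5G840582 a higher one than GRMZM2G120563 in maturing M. GRMZM2G033799 had a higher one than GRMZM2G094712 at SST, and the low genes changed places in further groups.

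**Figure D1:**
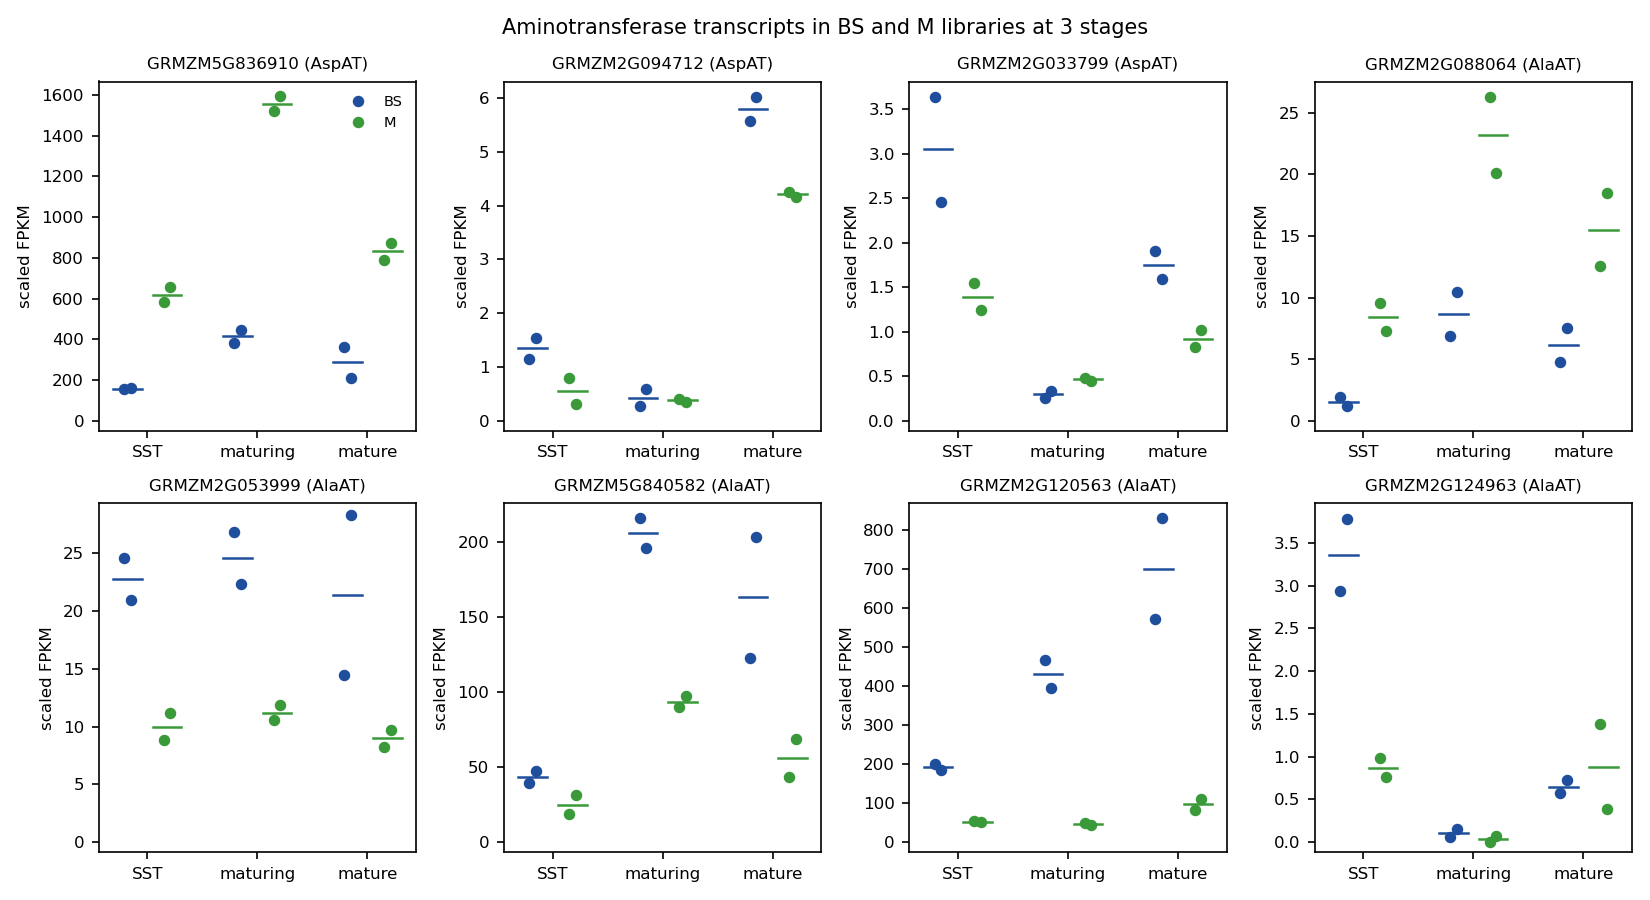
Level of each aminotransferase (scaled FPKM, linear axis, a scale of its own in each panel) in the BS and M libraries at the 3 stages. Points are libraries and bars the mean of 2. GRMZM5G836910 and GRMZM2G088064 were higher in both M libraries than in either BS library at every stage, and GRMZM2G053999, GRMZM5G840582 and GRMZM2G120563 were higher in both BS libraries.

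The first question was in which cell type each gene was transcribed, and from which stage. At SST, 3 of the 8 genes were called, 1 higher and 2 lower in BS, while 3.08% of all genes tested were called. At maturing 2 of 8 were called, 1 in each direction, against 8.38% of all genes, and at mature again 2 of 8, 1 in each direction, against 5.72%. The same genes carried these calls at all 3 stages, GRMZM5G836910 as the lower and GRMZM2G120563 as the higher, with GRMZM2G088064 lower at SST in addition. The median of the fitted log2 BS/M over the 8 genes was 1.01, 0.19 and 0.60 along the leaf, and that of all genes tested was 0 at each stage.

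Counting only whether the libraries of both cell types overlapped, all 8 genes were apart at SST, 6 higher and 2 lower in BS, and this held for 43.6% of all genes tested. At maturing 6 of 8 were apart, 3 in each direction, against 50.9% of all genes. At mature 7 of 8 were apart, 5 higher and 2 lower, against 42.8%. The 8 genes were chosen with earlier results of these data known. Neither these counts nor those of the calls are therefore independent evidence of a cell bias.

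GRMZM5G836910, the plastid-type AspAT, was the most abundant member in M cells and M-enriched throughout. It had 156.7 and 159.9 scaled FPKM in SST BS, against 581.6 and 657.3 in SST M. At maturing it had 382.1 and 446.1 in BS, against 1520 and 1594 in M, and at mature 361.7 and 212.0 in BS, against 791.3 and 871.4 in M. No BS library of any stage reached the lowest M library. The log2 BS/M was -1.96 at SST (SE 0.23, adjusted p = 0.0025 by limma), -1.91 at maturing (0.0011) and -1.58 at mature (0.0038). BS cells held 25.6, 26.6 and 34.5% of the M level, within the range over the 4 M markers at each stage, 21.9 to 35.6% at SST, 16.7 to 33.0% at maturing and 27.8 to 44.3% at mature. Without the first mature BS library the mature log2 BS/M was -1.97, and without the second -1.20.

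The other listed AspAT genes were low, and neither was called between the cell types at any stage. GRMZM2G094712 had 1.15 and 1.54 scaled FPKM in SST BS, against 0.786 and 0.315 in SST M, and at maturing 0.270 and 0.583 in BS, against 0.412 and 0.353 in M. At mature it had 5.58 and 6.02 in BS, against 4.26 and 4.15 in M. BS was above M in both libraries at SST and mature, and the cell types overlapped at maturing. The lower SST M value, 0.315, was under the median of genes seen in that library alone, 0.415 scaled FPKM. No difference was called, with log2 BS/M of 1.04 at SST (limma adjusted p = 0.12), 0.06 at maturing (1.0) and 0.44 at mature (0.52).

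GRMZM2G033799, the gene of the prephenate-linked type, had 3.64 and 2.46 scaled FPKM in SST BS, against 1.54 and 1.25 in SST M. At maturing it had 0.260 and 0.332 in BS, against 0.483 and 0.446 in M, and at mature 1.90 and 1.59 in BS, against 0.826 and 1.01 in M. Both BS libraries were thus above both M libraries at SST and mature and below them at maturing. The log2 BS/M was 0.98, -0.39 and 0.77, and none was called by limma (adjusted p = 0.070, 0.46 and 0.13). For scale, genes seen in 1 maturing library alone had a median of 0.135 to 0.167 scaled FPKM.

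Among the 5 AlaAT genes GRMZM2G120563, annotated as AOAT2, was BS-enriched at every stage and the most abundant in every group but maturing M. It had 201.3 and 185.7 scaled FPKM in SST BS, against 53.2 and 52.6 in SST M. At maturing it had 467.3 and 394.2 in BS, against 49.1 and 45.1 in M, and at mature 571.9 and 829.4 in BS, against 82.8 and 111.2 in M. The lowest BS library was above the highest M library over all stages. The log2 BS/M was 1.87 at SST (SE 0.21, adjusted p = 0.0022 by limma), 3.18 at maturing (6.3e-05) and 2.84 at mature (0.00019). M cells held 27.3, 10.9 and 13.8% of the BS level, in each case more than for any of the 4 BS markers, whose M level was 12.7 to 15.5% at SST, 2.74 to 5.38% at maturing and 6.34 to 10.3% at mature.

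GRMZM5G840582, the other AOAT2 gene, had 39.2 and 47.2 scaled FPKM in SST BS, against 18.7 and 31.3 in SST M. At maturing it had 216.1 and 195.7 in BS, against 90.3 and 97.1 in M, and at mature 122.6 and 203.5 in BS, against 43.6 and 68.7 in M. Both BS libraries were the higher at each stage. Its log2 BS/M of 0.82, 1.13 and 1.52 was not called by limma (adjusted p = 0.17, 0.052 and 0.018).

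GRMZM2G053999, annotated as ALAAT2, had 24.5 and 20.9 scaled FPKM in SST BS, against 8.85 and 11.1 in SST M. At maturing it had 26.9 and 22.3 in BS, against 10.6 and 11.9 in M, and at mature 14.4 and 28.3 in BS, against 8.20 and 9.75 in M. The groups were apart at every stage with nearly the same log2 BS/M, 1.17, 1.11 and 1.16, and none passed the threshold of limma (adjusted p = 0.045, 0.040 and 0.037). Without the first mature BS library the mature value was 1.64 and called by limma, at an adjusted p of 0.0043.

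GRMZM2G088064, annotated as AlaAT1, was the only one of the 5 AlaAT genes that was higher in M at all stages. It had 1.94 and 1.17 scaled FPKM in SST BS, against 9.58 and 7.25 in SST M. At maturing it had 6.87 and 10.5 in BS, against 26.3 and 20.1 in M, and at mature 4.75 and 7.53 in BS, against 12.6 and 18.5 in M. No BS library reached an M library of the same stage. On the log2 scale BS/M was -2.28 at SST (SE 0.35, limma adjusted p = 0.0076), -1.41 at maturing (0.030) and -1.31 at mature (0.043), so that the SST difference alone was called. BS cells held 18.5, 37.4 and 39.6% of the M level.

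GRMZM2G124963, also annotated as ALAAT2, had 2.94 and 3.78 scaled FPKM in SST BS, against 0.988 and 0.759 in SST M. At maturing it had 0.0646 and 0.151 in BS, against a value listed at 0 and 0.0677 in M, and at mature 0.579 and 0.724 in BS, against 1.38 and 0.383 in M. BS was the higher at SST, and the groups overlapped at maturing and mature. Fitted log2 BS/M was 1.68 at SST (limma adjusted p = 0.054), 0.33 at maturing (0.76) and -0.18 at mature (0.98). Its maturing values all lay under 0.167, the upper end of the range given above for genes seen in a single library.

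**Figure D2:**
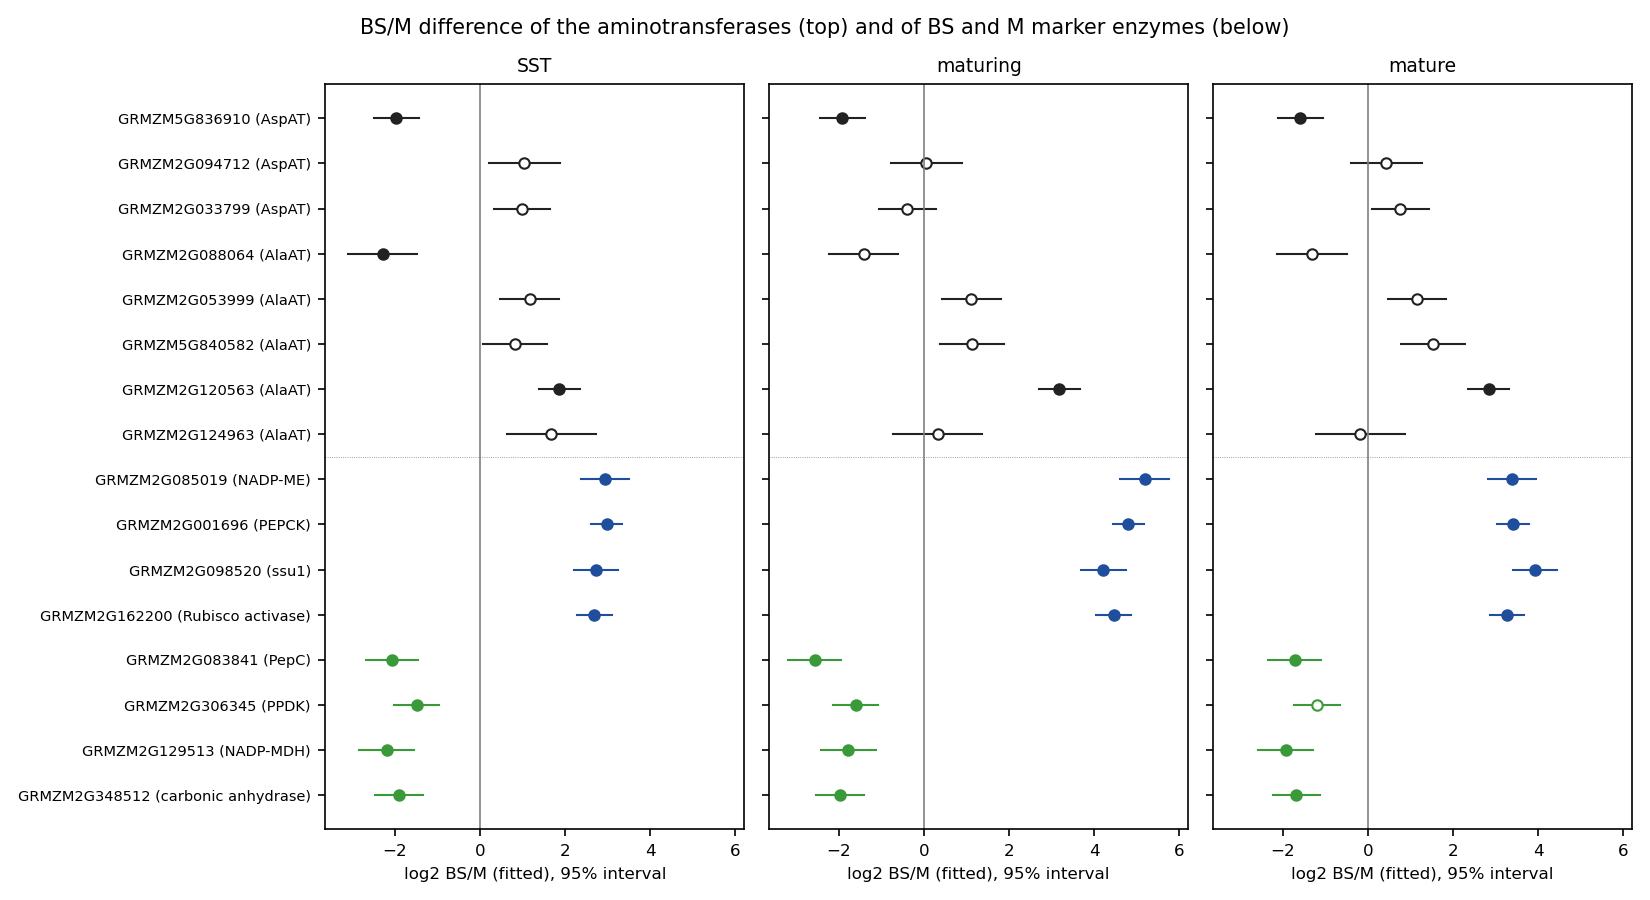
Fitted log2 BS/M (points) with 95% intervals (lines) at each stage for the 8 aminotransferases in black, the 4 BS markers in blue and the 4 M markers in green. Filled points were called by limma at an adjusted p below 0.01. GRMZM5G836910, from -1.96 to -1.58, lies among the M markers, and GRMZM2G120563, from 1.87 to 3.18, lies between 0 and the BS markers.

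The calls depended on the spread shared over all 12 libraries. With each stage fitted by itself none of the 8 genes was called at any stage, though GRMZM2G120563 had adjusted p-values of 0.015, 0.013 and 0.10, and GRMZM5G836910 of 0.026, 0.022 and 0.21, by limma. Of all 32548 genes tested, 0, 367 and 0 were called in these fits at SST, maturing and mature. With any 1 of the 4 SST libraries left out the SST calls of members were lost, and fewer of all genes tested were called there too. GRMZM2G088064 at SST lost its call whichever of the 12 libraries was left out, with log2 BS/M of -2.59 to -1.97. GRMZM2G120563 was called at maturing and mature whichever was left out, with 3.06 to 3.305 and 2.57 to 3.11. GRMZM5G836910 lost its maturing call without the first maturing BS library (adjusted p = 0.016 by limma) or either maturing M library (0.012 and 0.014), and at mature kept it only without one of the mature BS libraries.

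The summed levels show how the totals of the listed genes were made up, and other members of either family are not in them. The AspAT total was 163 ± 1.75 scaled FPKM in SST BS and 621 ± 53.0 in SST M (SD, n = 2 each, as for the sums that follow). At maturing it was 415 ± 45.6 in BS and 1558 ± 52.4 in M, and at mature 294 ± 106 in BS and 837 ± 56.7 in M. The M total was 3.82, 3.76 and 2.84 times the BS total at the 3 stages. GRMZM5G836910 made up 96.5 to 99.9% of the AspAT total in the BS libraries and 99.4 to 99.95% in the M libraries. The share of GRMZM2G094712 was highest in mature BS, at 1.51 and 2.74%, and that of GRMZM2G033799 in SST BS, at 2.26 and 1.498%.

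The AlaAT total ran the other way. It was 264 ± 7.95 scaled FPKM in SST BS and 97.2 ± 8.30 in SST M. At maturing it was 670 ± 66.7 in BS and 175 ± 1.49 in M, and at mature 892 ± 251 in BS and 179 ± 42.4 in M. The BS total was 2.72, 3.82 and 4.995 times the M total. Set against each other within a library, AlaAT was 1.39 to 4.87 times AspAT in the BS libraries, and AspAT was 4.20 to 9.16 times AlaAT in the M libraries. Such ratios, like the shares, compare genes of different length and are as approximate as the order of levels given above. The highest AlaAT over AspAT ratio, 4.87, was in the second mature BS library, and the first had 1.93.

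**Figure D3:**
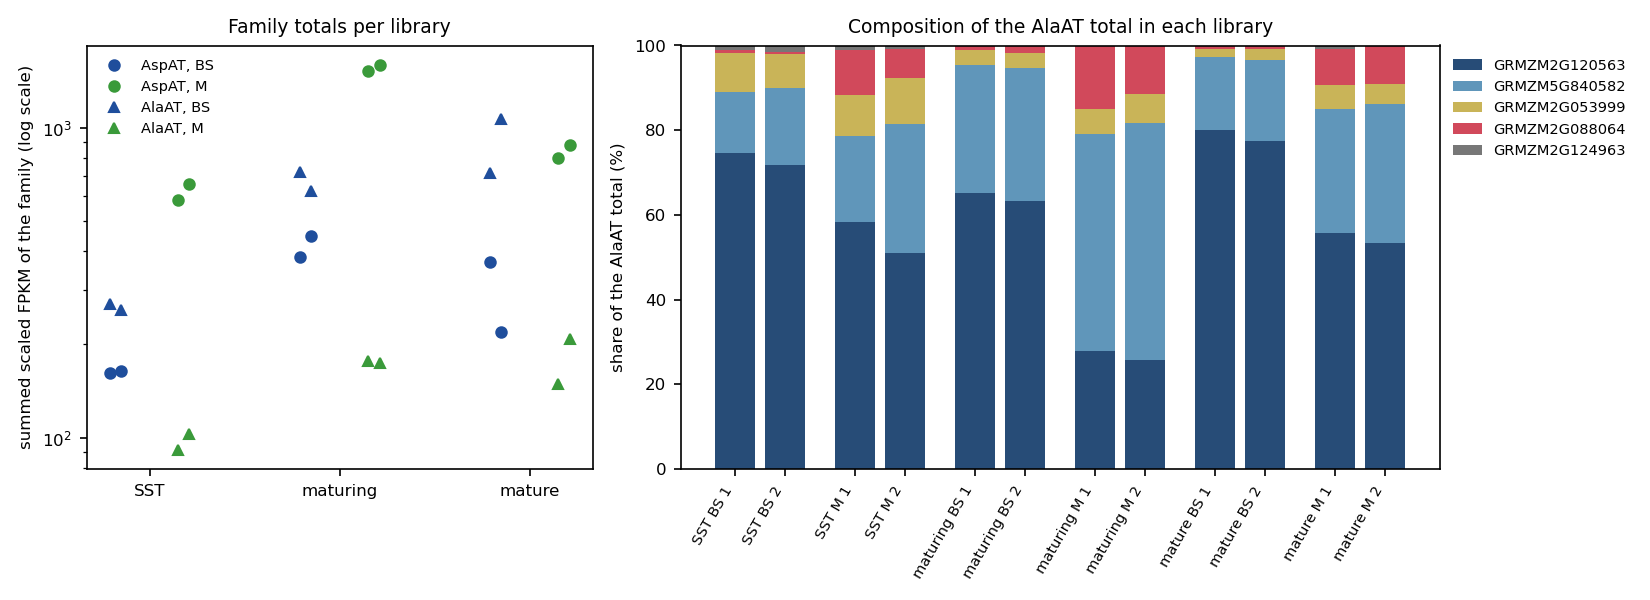
Left, summed level of the 3 AspAT genes (circles) and the 5 AlaAT genes (triangles) in each BS and M library (scaled FPKM, log axis). Right, share of each gene in the AlaAT total of each library (%), which for GRMZM2G120563 is lowest in the maturing M libraries, at 27.9 and 25.9%.

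The AOAT2 genes made up most of the AlaAT total in every group. GRMZM2G120563 made up 73.2, 64.2 and 78.8% of it in BS and 54.6, 26.9 and 54.5% in M at SST, maturing and mature. GRMZM5G840582 made up 16.4, 30.8 and 18.1% in BS and 25.5, 53.5 and 31.2% in M, and at maturing was the leading AlaAT gene of M cells. GRMZM2G053999 made up 8.59, 3.66 and 2.34% in BS and 10.3, 6.40 and 5.10% in M, less at each later stage. GRMZM2G088064 made up 0.452 to 1.68% of the total in the BS libraries and 7.04 to 14.9% in the M libraries. The libraries of the cell types did not overlap at any stage in the shares of GRMZM2G120563, GRMZM5G840582, GRMZM2G053999 and GRMZM2G088064, and no test was made of the shares.

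Leaving out the AOAT2 genes, the other 3 AlaAT genes summed to 27.6 ± 2.52 scaled FPKM in SST BS and 19.3 ± 0.194 in SST M. At maturing they summed to 33.4 ± 0.619 in BS and 34.4 ± 3.39 in M, and at mature to 28.2 ± 11.9 in BS and 25.4 ± 4.57 in M. The libraries of the cell types were apart at SST and overlapped at the later stages. Of this sum GRMZM2G053999 made up 82.1, 73.6 and 75.2% in BS and 51.9, 32.9 and 35.6% in M. GRMZM2G088064 made up 5.56, 26.1 and 22.3% in BS and 43.6, 67.0 and 60.7% in M. The leading gene of the sum was GRMZM2G053999 in BS at every stage, and GRMZM2G088064 in both M libraries at maturing and at mature. At SST GRMZM2G088064 led in the first M library (49.3 against 45.6%) and GRMZM2G053999 in the second (58.2 against 37.9%).

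The next question was how each gene changed along the leaf. The study describes the SST section as receiving less light than the later ones, so stage and light cannot be told apart in differences from SST. From SST to maturing, 6 of the 8 genes were called in BS cells, 4 higher and 2 lower at maturing, while 11.1% of all genes tested were called. In M cells 2 of 8 were called, both higher, against 8.35% of all genes in either direction and 4.48% higher. The 4 genes that rose in BS were GRMZM5G836910 (log2 maturing/SST of 1.38, SE 0.23, limma adjusted p = 0.0039), GRMZM2G088064 (2.31, 0.35, 0.0028), GRMZM5G840582 (2.25, 0.33, 0.0022) and GRMZM2G120563 (1.15, 0.21, 0.0060). GRMZM2G033799 (-2.56, 0.29, 0.00060) and GRMZM2G124963 (-3.32, 0.45, 0.0016) fell. In maturing BS GRMZM2G124963 had 0.0646 and 0.151 scaled FPKM, under the added 0.255, so the fitted size of its fall depends on that value. In M cells GRMZM5G836910 rose (1.33, 0.23, 0.0060), as did GRMZM5G840582 (1.94, 0.33, 0.0056). GRMZM2G120563 had a log2 maturing/SST of -0.17 in M (0.70). GRMZM2G053999 had 0.11 in BS and 0.17 in M, with adjusted p-values of 0.91 and 0.83. The M call of GRMZM5G836910 was lost with the FPKM as deposited (1.08, adjusted p = 0.015 by limma). With any 1 of the SST or maturing libraries left out the M calls of members were lost, and fewer of all genes tested were called in M. In BS most member calls were lost without any 1 of the SST BS or maturing BS libraries, where fewer of all genes were called as well. The BS call of GRMZM2G120563 was lost with no trend of the spread (adjusted p = 0.017 by limma), with the replicate number as a block (0.010) and with any 1 of the SST or maturing libraries left out.

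Between maturing and mature both low AspAT genes rose in BS. There 2 of 8 genes were called, both higher, against 14.4% of all genes tested in either direction and 7.79% higher. In M 2 of 8 were called, both higher, against 14.3% and 7.31%. GRMZM2G094712 rose in BS (log2 mature/maturing of 3.19, SE 0.36, limma adjusted p = 0.00048) and in M (2.81, 0.36, 0.00094). GRMZM2G033799 rose in BS (1.86, 0.29, 0.0023) and had 0.70 in M (0.12). GRMZM2G120563 rose in M (1.02, 0.21, 0.0084) and had 0.68 in BS (0.045). The abundant AspAT gene GRMZM5G836910 had -0.58 in BS (0.11) and -0.91 in M (0.021), neither called. Without the first mature BS library GRMZM5G836910 was called in BS, with -0.96 and an adjusted p of 0.0043 by limma. GRMZM2G033799 lost its BS call without the first maturing BS library (adjusted p = 0.013 by limma), and GRMZM2G094712 its M call without the second maturing M library (0.010). The M call of GRMZM2G120563 was lost in 10 of the 12 fits that left out 1 library, all but those without a mature BS library.

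The genes peaked in different groups. Over the 6 group means GRMZM5G836910 and GRMZM2G088064 were highest in maturing M, GRMZM5G840582 and GRMZM2G053999 in maturing BS, GRMZM2G120563 and GRMZM2G094712 in mature BS, and GRMZM2G033799 and GRMZM2G124963 in SST BS. The maturing BS libraries of GRMZM5G840582, at 216.1 and 195.7 scaled FPKM, overlapped those of mature BS, at 122.6 and 203.5. For GRMZM5G836910 the order was maturing M, mature M, SST M, maturing BS, mature BS and SST BS, and no neighbours overlapped. For GRMZM2G120563 it was mature BS, maturing BS, SST BS, mature M, SST M and maturing M, again with no overlap. For GRMZM2G053999 the 3 BS means, 24.6, 22.7 and 21.4, overlapped from maturing through SST to mature, as did the 3 M means, 11.2, 9.99 and 8.97, in the same order. Fewer cells of a type in the captured material and less RNA per cell cannot be told apart in such levels.

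Whether the BS/M difference itself changed between stages was tested as an interaction. None of the 8 genes was called between SST and maturing or between maturing and mature by limma, where 0.307% and 0.934% of all genes were called. At an unadjusted p below 0.05 there were 2 and 1 of the 8, against 5094 and 6027 of the 32548 genes tested. The largest changes toward maturing were those of GRMZM2G033799 (-1.37, adjusted p = 0.15), GRMZM2G124963 (-1.35, 0.37) and GRMZM2G120563 (1.32, 0.069) by limma. The change of GRMZM5G836910 was 0.05 (1.0) toward maturing and 0.33 (0.63) toward mature, with a standard error of 0.32 in each case.

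Other enzymes of the same metabolism were listed by their annotation, largely from the study's own table of differentially expressed genes, so their counts are not independent evidence of a direction. Of all genes tested 3.08, 8.38 and 5.72% were called between BS and M at SST, maturing and mature, which applies beside each list below. Of 8 enzymes of the C4 acid shuttle 6 were called at SST and at maturing, 2 higher and 4 lower in BS each time, and 5 at mature, 2 higher and 3 lower. The markers PEPCK and NADP-ME were those called higher. Of the shuttle genes that are no markers, the PPDK regulatory protein GRMZM2G131286 was not called at any stage (log2 BS/M of -1.86, -1.82 and -2.03, limma adjusted p = 0.027, 0.019 and 0.015), nor was the second PEPCK gene GRMZM5G870932 (1.05, 1.33 and 0.67).

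NAD malate dehydrogenases convert malate and oxaloacetate, the partner of aspartate, into each other. Of 6 such genes 2 were called at SST, both higher in BS, 4 at maturing, 3 higher and 1 lower, and 3 at mature, 2 higher and 1 lower. The peroxisomal GRMZM2G072744 (log2 BS/M of 1.16, 1.74 and 1.08) and the mitochondrial GRMZM2G154595 (1.33, 1.63 and 2.51) were higher in BS at every stage by limma. GRMZM2G466833, also mitochondrial, was higher at maturing (2.08). GRMZM2G068455 was lower at maturing (-1.81) and GRMZM2G161245 at mature (-1.82), and GRMZM2G141289 was not called.

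Of 6 alanine-glyoxylate aminotransferases, enzymes that pass an amino group to glyoxylate, 2 were called at SST, 1 at maturing and 1 at mature, all higher in BS. The share of all genes tested that was called was 3.08, 8.38 and 5.72%, so a single call says little about the list. GRMZM2G124353, annotated as AGT2, was higher at each stage (log2 BS/M of 2.23, 2.62 and 1.77), and GRMZM2G137868, annotated as AGT, was higher at SST (1.32). GRMZM2G119511, GRMZM2G359559, GRMZM2G107739 and GRMZM2G127350 were not called by limma. Of 10 enzymes that make or use glutamate, glutamine and asparagine 2 were called at SST, both higher in BS, 5 at maturing, 3 higher and 2 lower, and 3 at mature, 2 higher and 1 lower. Among them gln6 was called higher at all stages, gln3 at SST and maturing and gln2 at maturing and mature, while gln5 was lower at maturing, gln4 at mature, and the asparagine synthetase gene ASN3 at maturing (-1.26, adjusted p = 0.0083).

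The genes whose pattern was most like that of a member were found by Pearson correlation of log2 values over the 12 libraries, which share stage and cell type, and are given as a description. For GRMZM2G120563 the most similar of all genes tested was PEPCK (GRMZM2G001696, r = 0.991), followed by GRMZM2G111269 (0.991) and GRMZM2G076423 (0.991). PEPCK had 1362 and 1430 scaled FPKM in SST BS, against 176.7 and 176.3 in SST M, and 4782 and 5941 in mature BS, against 446.1 and 560.9 in mature M, so that both genes were highest in mature BS. For GRMZM5G836910 the nearest were GRMZM2G169699 (0.997), GRMZM5G885392 (0.988) and GRMZM2G121878 (0.987). For GRMZM5G840582 they were GRMZM2G163437 (0.983), an ADP-glucose pyrophosphorylase gene of starch synthesis, GRMZM2G070047 (0.981) and GRMZM2G352912 (0.978). For GRMZM2G053999 they were the superoxide dismutase gene sod3 (GRMZM2G059991, 0.977), GRMZM2G107774 (0.964) and fcr2 (GRMZM2G157263, 0.962). For GRMZM2G088064 they were GRMZM2G117633 (0.978), GRMZM2G134797 (0.968) and GRMZM2G041534 (0.958). Among the members themselves the closest pair was GRMZM2G088064 and GRMZM5G836910 (0.904), the AlaAT and the AspAT gene that were higher in both M libraries at every stage, and the most opposed was GRMZM2G124963 and GRMZM2G088064 (-0.79).

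The gene models limit some of these values. Of the 8 identifiers 7 were found in a RefSeq gene table of a later assembly, Zm-B73-REFERENCE-NAM-5.0, and GRMZM2G053999 was not. GRMZM2G120563 corresponded to 3 RefSeq genes, and GRMZM5G840582 and GRMZM2G088064 to 2 each. A value of these models can therefore be a sum over several gene copies, and how reads were divided among near-identical copies is not given in the sources used here. GRMZM2G088064 shared its RefSeq genes with GRMZM2G088018 and GRMZM2G088028, neither of which was among the genes above 0 in at least 1 library.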

How the data were processed

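BS and M cells of leaves, of Mo17 per the labels while the study's methods name both Mo17 and B73, were captured by laser microdissection at 3 stages, and their RNA was amplified through 1 round before Illumina sequencing. The authors deposited 1 FPKM value per gene and library for 110005 gene models, and these values were used as deposited. The submitters' processing notes name CASAVA 1.3, TopHat2 2.0.10, Cuffdiff 2.1.1 and B73 RefGen v3, while the paper speaks of an earlier assembly, and any scaling of the deposited FPKM between libraries is not given in the sources used here. The upper-quartile scaling the methods name belongs to the authors' own test. Reads of leaves labelled Mo17 were set against gene models of B73, and the effect of this was not tested. No count data were used, since the table holds FPKM. Relative depth was estimated from the steps of low values.

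Each library was multiplied by a factor that brought its upper quartile, taken over genes detected in at least 1 library, to 2.55 FPKM. At maturing the median log2 BS/M of 13609 moderately expressed genes was then -0.14, and 0 with the values as deposited. A pseudocount of 0.255 was added before log2 values were taken, and genes with a mean of at least 0.255 in 1 or more of the 6 groups were tested. limma 3.58.1 in R 4.3.3 fitted 6 group means with a trend of the spread (6 residual and 2.12 prior degrees of freedom), and adjusted p-values (Benjamini-Hochberg) were taken per comparison over all genes tested. Shares and totals were taken from scaled FPKM and were not tested. Python 3.11.15 was used for tables (pandas 2.3.3, numpy 2.4.6) and figures (matplotlib 3.10.9).

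The 8 genes and the lists of other enzymes and markers were chosen with earlier results of these data known. Named are the 8 genes, all genes of lists of up to 8, from longer lists those called between BS and M, and the 3 tested genes most correlated with each member whose mean reached the common upper quartile. Alternatives were the FPKM as deposited, median-of-ratios scaling, other pseudocounts and filters, no trend of the spread, a replicate block, a fit per stage, leaving out each library in turn, and the AlaAT total without the AOAT2 genes. Besides the alanine-glyoxylate aminotransferases, other aminotransferases were not listed, because the RefSeq gene table used here gives no descriptions, and no protein or transcript sequences were used.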

Additional observations from a re-analysis of the deposited data

Results flagged for a closer look

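For GRMZM2G033799, the AspAT gene of the prephenate-linked type, BS and M changed places between successive stages. Both BS libraries were above both M libraries at SST (log2 BS/M of 0.98), below them at maturing (-0.39) and above them again at mature (0.77). In the test of the difference itself the BS/M value changed by -1.37 from SST to maturing (adjusted p = 0.15 by limma) and by 1.16 from maturing to mature (0.17), so neither passed the threshold of 0.01. The maturing levels, 0.260 and 0.332 scaled FPKM in BS against 0.483 and 0.446 in M, were the lowest of the gene.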

How the results depend on the processing

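The log2 BS/M of the 8 genes kept its direction at every stage under the other scalings, pseudocounts and filters. With each stage fitted by itself 0 members were called at SST, maturing and mature, and 0, 367 and 0 of all genes, against 1003, 2729 and 1863 with the shared spread. The 6 members called between SST and maturing in BS became 4 with no trend of the spread and 5 with the block. All genes called there went from 3616 to 3035 and 3101. The 2 members called between SST and maturing in M became 1 with FPKM as deposited, 1 with median-of-ratios scaling, 0 with no trend of the spread and 1 under the replicate block. In the same order, all genes called went from 2717 to 2551, 2594, 2091 and 2239. The 2 called between maturing and mature in M became 1 with no filter on low values, 1 with no trend and 1 with the block. All genes called there went from 4641 to 4130, 4199 and 4026. Leaving out 1 library in turn, members called ranged between 0 and 2 at SST, 1 and 3 at maturing and 1 and 3 at mature, between 1 and 6 from SST to maturing in BS and 0 and 2 in M, and between 1 and 3 from maturing to mature in BS and 0 and 3 in M. Where a group was left with 1 library, it was assumed to vary like the others.

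Directions turned only for differences that were not called. With the deposited FPKM and under median-of-ratios scaling GRMZM2G053999 had -0.002 and -0.024 from SST to maturing in BS, -0.075 and -0.066 in M, a change of BS/M of 0.074 and 0.042 toward maturing, and of -0.149 and -0.126 toward mature. The change of GRMZM2G088064 toward mature was -0.093 and -0.066. With 1 library left out, log2 BS/M ranged over -0.278 to 0.397 for GRMZM2G094712 at maturing and -0.857 to 0.501 for GRMZM2G124963 at mature. The stage difference of GRMZM2G053999 in BS ranged over -0.022 to 0.244 toward maturing and -0.752 to 0.208 toward mature, and that of GRMZM2G094712 in M over -0.71 to 0.16 toward maturing. The change of BS/M toward maturing ranged over -0.219 to 0.104 (GRMZM2G053999), -0.062 to 0.162 (GRMZM5G836910) and -0.057 to 0.678 (GRMZM5G840582), and toward mature over -0.437 to 0.524 (GRMZM2G053999), -0.219 to 0.419 (GRMZM2G088064), -1.185 to 0.172 (GRMZM2G124963) and -0.055 to 0.716 (GRMZM5G836910). The cause of these changes was not tested.

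Replicate numbers did not pair the libraries, since deviations of equal numbers correlated at -0.042 to 0.023. With the number as a block GRMZM2G088064 at SST had an adjusted p of 0.015 by limma and was not called, GRMZM5G840582 at mature was called (0.0094), GRMZM2G120563 was not called from SST to maturing in BS (0.010), and genes with a changed BS/M numbered 52 against 100 toward maturing and 164 against 304 toward mature. With no filter on low values they numbered 209 toward maturing. FPKM multiplied by transcript length was not run, for lack of lengths of the build. The maturing levels of GRMZM2G124963 were near those of genes seen in a single library, where depth limits a comparison most. So were GRMZM2G094712 in the second SST M library (0.315, against a median of 0.415) and GRMZM2G124963 in the second mature M library (0.383, against 0.371).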
